A study of Homo sapiens with 4 samples.

Results

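The genes examined here are those of the RNF and TRIM families, whose products are mostly RING-type ubiquitin ligases. They were chosen by a symbol rule, with earlier results of these data known. The symbol had to be RNF with a number and an optional A or B, or TRIM with a number and an optional L. TRIM symbols ending in A or B, and any members under other names, were thus not taken. From the matches, 1 gene was left out beforehand. This gave 103 of the 13957 genes in the deposited table, of which 64 were RNF and 39 were TRIM genes. RNA had been sequenced from MDA-MB-231 Fluc cells, a triple-negative breast cancer line that carries a luciferase gene, in 2 samples exposed to 50 μM cordycepin for 2 h and 2 samples given the vehicle DMSO. Cordycepin is 3′-deoxyadenosine, a nucleoside analogue. All 4 samples come from a single cell line, so the levels describe that line.

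For each gene the deposited table gives 1 level, as log2 CPM (read counts scaled to library size), and no level per library. It is read here as the mean over all libraries. The treated and the vehicle samples are therefore averaged together in every value below, no spread between samples can be given, and the depth of each library is unknown. The authors' own comparison of cordycepin with DMSO was not used here, so how these genes responded to cordycepin is not described. To compare genes of different length, each mean was divided by the gene length in the table and is given as log2 CPM per kb. Over all genes this level had a median of 2.43, with 50% of genes between its quartiles of 0.94 and 3.88. Of 6 genes listed as high in this line, AXL, CAV1, VIM, CD44 and MSN were between 7.10 and 8.65 log2 CPM per kb, and SPARC had no row. Of 6 genes listed as low or absent, the hormone receptor genes ESR1 and PGR had no row. CDH1 at 1.07 and EPCAM at 2.40 were below the median of all genes. GATA3 at 2.72 and ERBB2 at 3.13 were above it, and so were not low by this measure. The leukocyte, endothelial and liver markers PTPRC, PECAM1 and ALB had no row either.

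Ubiquitin is passed from an E1 to an E2 enzyme and then, with the help of an E3 ligase, to a target protein. The RING is a zinc-binding fold that brings the loaded E2 to the target. TRIM proteins follow the RING with B-box and coiled-coil parts, and many act in antiviral defence, whereas RNF is a naming group for RING proteins of otherwise varied build.

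The families were first compared by how many of the annotated genes under this symbol rule had a row. In GENCODE release 44, 83 RNF genes were annotated as protein coding, and 64 of them (77.1%) had a row in the table (Wilson 95% confidence interval 67.0% to 84.8%). For TRIM it was 38 of 67 genes (56.7%, interval 44.8% to 67.9%). The share for all protein-coding genes was 57.9%, near that of TRIM and below the interval of RNF. These intervals treat genes as independent draws and cover neither the spread between samples nor the unstated filter on low counts. The remaining TRIM row, TRIM16L, is annotated as a transcribed pseudogene.

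**Figure D1:**
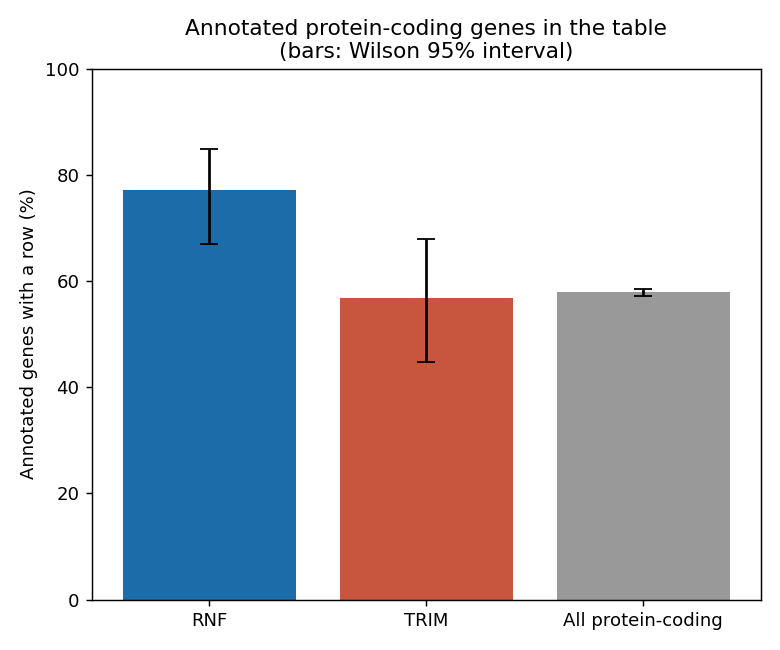
Percent of annotated protein-coding genes with a row in the table (vertical axis) for RNF, TRIM and all genes, with Wilson 95% intervals as error bars. RNF stood at 77.1%, TRIM at 56.7% and all protein-coding genes at 57.9%.

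Among genes with a row, the RNF family had a median level of 2.31 log2 CPM per kb and the TRIM family one of 1.58, a difference of 0.73 on the log2 scale. The quartiles of the RNF genes were 1.08 and 3.26, and those of the TRIM genes 0.74 and 3.31, so the families overlapped over most of their range. Above the median of all genes were 31 of 64 RNF genes (48.4%) and 12 of 39 TRIM genes (30.8%). Above the upper quartile of all genes were 10 RNF and 4 TRIM genes, and below the lower quartile were 13 RNF and 12 TRIM genes. The difference between the family medians was 0.36 without the members whose exons overlap another gene on the same strand, and also 0.36 among members above the lowest 25% of mean log2 CPM. Without division by length it was 0.23, and 29 RNF genes (45.3%) and 14 TRIM genes (35.9%) were then above the median of all genes. The median gene length in the table was 5544 bases for TRIM and 4706 for RNF. Members are not replicates, and no test between the families was made.

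**Figure D2:**
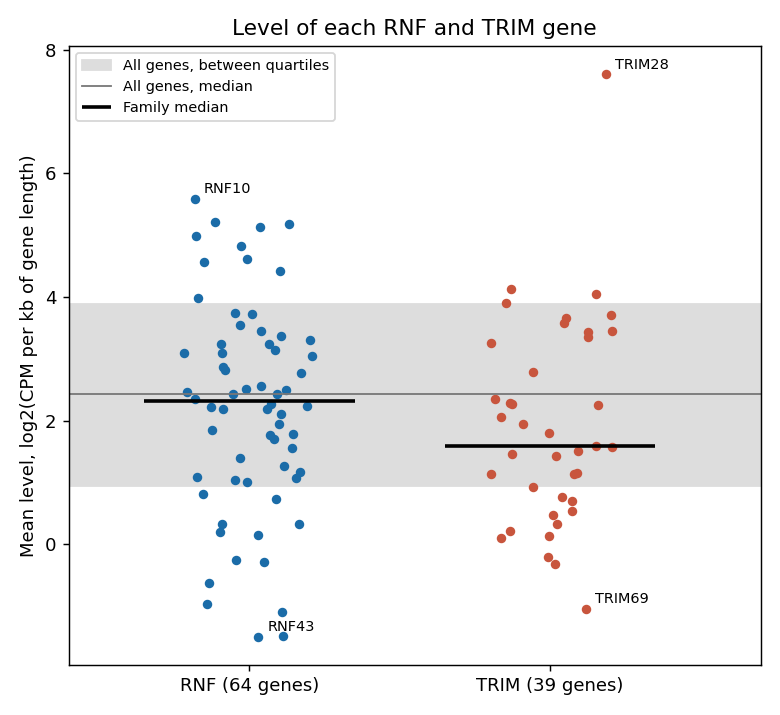
Mean level of each gene in log2 CPM per kb of gene length (vertical axis) for the 64 RNF and 39 TRIM genes, each point being 1 gene. Black lines mark the family medians of 2.31 and 1.58, and the grey band and line mark the range between the quartiles and the median of all genes. TRIM28 stands alone at 7.61.

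The 5 highest RNF genes were close to each other in level. RNF10 (chromosome 12, 120533480 to 120577588) had the highest, at 5.59 log2 CPM per kb, or 48.2 CPM per kb. It was followed by RNF11 at 5.22, RNF26 at 5.17, RNF5 at 5.13 and RNF145 at 4.99. RNF5 and RNF145 encode ligases of the endoplasmic reticulum membrane, and RNF26 is also anchored in that compartment. The distance from RNF10 to RNF11 was 0.38 on the log2 scale. This order depends on the gene length in the table, and members were not ranked by the canonical transcript of GENCODE. For RNF181 the length was 1315 bases in the table and 685 in the canonical transcript, and for RNF126 it was 3452 and 1631. Such genes would stand higher by the canonical transcript, so membership of the 5 highest rests on the length used.

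TRIM genes had 1 member far above the rest. TRIM28 (chromosome 19, 58544064 to 58550722), also known as KAP1, is the corepressor that KRAB zinc finger proteins bring to DNA. Its level was 7.61 log2 CPM per kb, at percentile 98.5 of all genes in the table and 11.1-fold that of TRIM14, the next gene of the family. This ratio and the next gene depend on the gene length in the table. Before division by length the next gene was TRIM25, with a mean of 7.29 log2 CPM against 9.71 for TRIM28. Of the summed CPM of the 39 TRIM genes, TRIM28 alone made up 37.0%, whereas the highest RNF gene made up 11.3% of the sum of its family. TRIM14 had a level of 4.13, TRIM25 had 4.04, TRIM37 had 3.91 and TRIM8 had 3.72. In sum, RNF genes accounted for 0.250% and TRIM genes for 0.226% of the CPM in the table.

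At the lower end, RNF43 (chromosome 17, 58352500 to 58417595) had a level of -1.49 log2 CPM per kb and RNF31 (chromosome 14, 24146683 to 24160660) had -1.48. RNF43 encodes a membrane ligase that removes Wnt receptors from the cell surface, and RNF31 encodes HOIP, the catalytic subunit of the linear ubiquitin chain assembly complex. RNF152 was at -1.09, RNF125 at -0.96 and RNF128 at -0.63. The lowest TRIM genes were TRIM69 at -1.04, TRIM73 at -0.31, TRIM66 at -0.21, TRIM62 at 0.10 and TRIM5 at 0.14. The ranks of TRIM69 and TRIM73 depend on the length used. Their gene lengths in the table were 9265 and 5544 bases, against 1735 and 1350 for their canonical transcripts. From highest to lowest, RNF genes spanned 7.09 and TRIM genes 8.65 on the log2 scale. Genes without a row are not part of these spans. Before division by length, RNF31 had a mean of 0.86 log2 CPM, RNF128 had 1.14 and RNF43 had 1.41. These were near the lowest mean of any gene in the table, 0.56.

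RNF43 and RNF31 also lie within annotated genes that share their exons. In GENCODE release 44, 68.4% of the exon bases of RNF43 and 53.3% of those of RNF31 were shared with another gene on the same strand. Of the 103 genes, 26 shared any exon base in this way, 16 of them less than 10% of their bases, and 3 at least 50%. The third was TRIM16L, which shared 100% of its bases with another entry of the same symbol and had a level of 3.66. That other entry had no row. The share rests on 1176 exon bases in GENCODE, whereas the level rests on a gene length of 4329 bases. For TRIM16L the share and the level thus describe different gene models. For RNF43 and RNF31 too, the number of exon bases in GENCODE differed from the gene length in the table, which was 7505 and 5056 bases. How reads in shared exons were counted is not given in the sources used here, and the part of the overlap in the low values was not tested. Next came TRIM39, with 29.5% of bases shared with the read-through gene TRIM39-RPP21, and TRIM6, with 29.2% shared with TRIM6-TRIM34. Their levels were 1.80 and 2.25. RNF5, RNF138 and RNF216 have pseudogene copies with rows of their own, and TRIM16 resembles TRIM16L as TRIM73 resembles TRIM74, so reads of these genes may have been divided among copies.

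**Figure D3:**
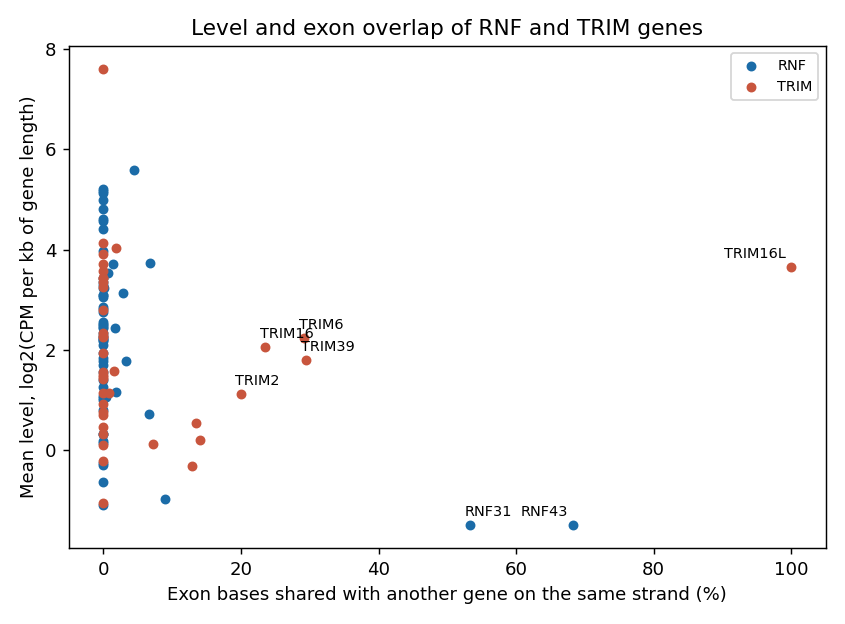
Mean level in log2 CPM per kb (vertical axis) against the percent of exon bases shared with another gene on the same strand (horizontal axis), each point being 1 RNF or TRIM gene. RNF43 and RNF31, at 68.4% and 53.3%, have the lowest levels, while TRIM16L at 100% has a level of 3.66. The share and the level of TRIM16L rest on different gene models, and those of RNF43 and RNF31 on different numbers of bases.

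The members were then grouped by role. The 3 RNF genes of the chromatin list were all above the median of all genes. RNF20 and RNF40 encode the partners that ubiquitinate histone H2B, and had similar levels of 3.37 and 3.45 log2 CPM per kb. RNF2, which encodes the H2A ligase of Polycomb complex PRC1, had 2.44, next to the median of all genes. In the list of DNA damage and SUMO-targeted ligases, the SUMO-targeted ligase RNF4 was highest at 3.74 and RNF138, which acts in DNA end resection, had 3.54. RNF168, which ubiquitinates H2A near DNA breaks but is not in the chromatin list, had 2.35. This was below the median of all genes, as was its relative RNF169 at 1.04. The other SUMO-targeted ligase, RNF111, had 1.17.

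RING-between-RING ligases take the ubiquitin onto themselves before passing it on. All 8 listed had a row, with a median of 1.51 log2 CPM per kb, and 2 of them were above the median of all genes. These were RNF14 at 3.23 and RNF216 at 3.09. The paralogues RNF19A and RNF19B were near each other, at 1.94 and 2.23, as were RNF144A and RNF144B at 0.33 and 0.19. RNF217 had a level of 1.09, and RNF31, described above, was the lowest of this list.

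Ligases with a protease-associated domain outside or in the lumen and a RING in the cytosol varied more. Of the 9 listed, RNF133, RNF148 and RNF150 had no row. The others ranged from RNF167, a lysosomal ligase, at 4.82 to RNF43 at -1.49, a ratio of 79.6 in CPM per kb. RNF149 had a level of 3.24, RNF13 had 2.50 and RNF130 had 2.28. For RNF130 the table's gene length was 12817 bases, against 1904 for the canonical transcript, so its level depends strongly on the length used. RNF128, known as GRAIL for its role in T cell anergy, was low at -0.63. All 7 listed ligases of the endoplasmic reticulum had a row. After RNF5 and RNF145 came RNF121 at 2.82 and RNF185, the paralogue of RNF5, at 2.51. RNF139, which like RNF145 is linked to sterol-regulated degradation, had 1.78, RNF170 had 1.07 and RNF103 had 0.72. Of the immune list, RNF135, an activator of the viral RNA sensor RIG-I, had 3.09 and the giant interferon-induced ligase RNF213 had 2.44. RNF125, which targets RIG-I for degradation, had -0.96. RNF213 was the longest gene of both families, at 28570 bases, and before division by length its mean of 7.27 log2 CPM was second to that of RNF10, at 8.15, in the RNF family.

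**Figure D4:**
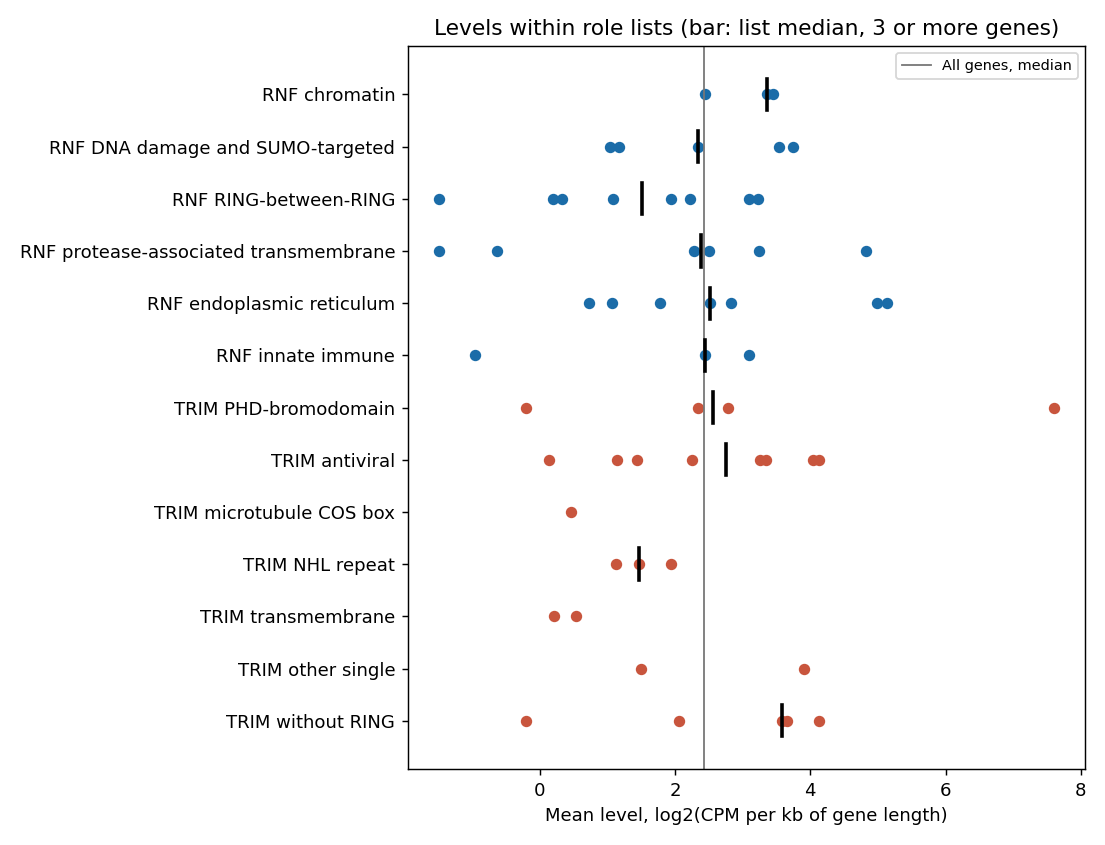
Mean level in log2 CPM per kb (horizontal axis) of the genes in each list of roles (vertical axis), with RNF genes in blue and TRIM genes in red. The grey line is the median of all genes at 2.43 and black bars are list medians. The chromatin list lies at or above that line, and the NHL repeat and transmembrane TRIM lists lie below it.

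Among TRIM genes, the 4 with a PHD finger and bromodomain covered nearly the whole range of the family. TRIM33, a regulator of SMAD signalling, had a level of 2.79 and TRIM24, a cofactor of nuclear receptors, had 2.34. TRIM66 had -0.21, so that TRIM28 was 225-fold higher in CPM per kb. Some TRIM proteins have a COS box, which binds microtubules. Of the 7 genes listed for it, TRIM36 alone had a row, at 0.47. TRIM9, TRIM46, TRIM54, TRIM55, TRIM63 and TRIM67 had none. The list holds only symbols of TRIM and a number, so any gene with this box under another symbol is left out. TRIM54, TRIM55 and TRIM63 are the muscle RING finger genes, and TRIM9, TRIM46 and TRIM67 are known from neurons. Of the 4 genes with NHL repeats, TRIM32 had 1.95, TRIM3 had 1.46 and TRIM2 had 1.13, all below the median of all genes, and the stem cell gene TRIM71 had no row. The membrane-anchored members TRIM13 and TRIM59 had 0.54 and 0.21. TRIM37, a ligase that restrains centrosome assembly, had 3.91, and TRIM23, which carries an ARF domain, had 1.50. Several TRIM proteins lack a RING. Of the 6 genes listed for this, TRIM14 had 4.13, TRIM44 had 3.58, TRIM16 had 2.06 and TRIM66 had -0.21, while TRIM29 had no row. The list also holds TRIM16L, the transcribed pseudogene with shared exons described above, at 3.66.

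The antiviral list was split. TRIM14 and TRIM25, which act with the sensors of viral nucleic acid, had 4.13 and 4.04 log2 CPM per kb, TRIM56 had 3.35 and TRIM26 had 3.26. TRIM6 had 2.25, TRIM21, the cytosolic antibody receptor, had 1.43, TRIM38 had 1.14 and the retroviral restriction factor TRIM5 had 0.14. TRIM22 and TRIM34 had no row. Thus 4 of 8 were above the median of all genes, and TRIM14 was 15.9-fold above TRIM5.

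As genes of this kind are known for their induction by interferon, the promoters were searched for the core of the interferon-stimulated response element, taken as 2 copies of GAAA with any 2 bases between them, on both strands and allowing overlapping matches. RefSeq windows (GRCh38.p14) from 250 bases before to 50 after the start of transcription were found by symbol for 55 RNF and 29 of the 39 TRIM genes with a row. This is under 80% of the TRIM genes, so a comparison of the families by this motif is void. Of all 35116 windows in the reference, 3.57% held the motif, and 4.38% of all genes there had such a window. It was found in TRIM2, TRIM5, TRIM14, TRIM16, TRIM21, TRIM26, TRIM44 and TRIM69, and in RNF31 and RNF32. The sites in antiviral genes with a row and in RNF31 are shown to set the sequence beside the level, read 5′ to 3′ on the strand that carries the GAAA copies, with the motif in capitals. A match describes these letters and is not evidence of binding.
TRIM14, chr9:98119229-98119258, plus strand: gctcccaaggGAAACCGAAAcctcggccgt
TRIM26, chr6:30213575-30213604, plus strand: caggggcagcGAAATGGAAActgaaatcag
TRIM21, chr11:4393666-4393695, minus strand: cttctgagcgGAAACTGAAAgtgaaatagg
TRIM5, chr11:5685082-5685111, plus strand: ctcagggcagGAAAGTGAAAgataaactat
RNF31, chr14:24146625-24146648, minus strand: cctggggagtGAAAGCGAAAgccc
These 5 genes had levels of 4.13, 3.26, 1.43, 0.14 and -1.48 log2 CPM per kb, in that order, so genes with the motif were found at the upper and at the lower end. In TRIM21 and TRIM26 a second copy overlaps the one shown. Relative to the start site, with bases before it counted as negative, the centres of the 5 motifs shown lay at -21 in TRIM14, -183 in TRIM26, 22 in TRIM21, -22 in TRIM5 and -241 in RNF31.

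Some members are neighbours in the genome. Chromosome 11 carried 7 TRIM genes with a row and chromosome 17 carried 6. There were 6 pairs of members less than 100 kb apart with no other member between them. The distances in level within these pairs were not compared with those between other members. RNF125 and RNF138 lie 18.7 kb apart in the same direction on chromosome 18, and RNF138 was 4.50 higher on the log2 scale. TRIM11 and RNF187, 80.5 kb apart on chromosome 1, had 1.15 and 3.98 log2 CPM per kb. TRIM6 and TRIM5 are 50.2 kb apart on chromosome 11, and TRIM5 was lower by 2.11. TRIM41 had 2.29 and TRIM52 had 0.77 on chromosome 5. TRIM47 and TRIM65, only 1.75 kb apart on chromosome 17, had 2.26 and 3.45. The smallest distance in level was that of RNF208 and RNF224 on chromosome 9, at 1.40 and 0.81.

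The enzymes that supply the ligases were set beside them. All 32 listed E1 and E2 genes had a row, with a median of 4.09 log2 CPM per kb, and 29 were above the median of all genes. UBE2C, the E2 of the anaphase-promoting complex, was highest at 7.60, close to TRIM28. It was followed by the E1 gene UBA1 at 6.75 and by UBE2S at 6.23. The lowest was UBE2V1 at -0.40, the E2 variant that partners UBE2N. Exon overlap with other genes was examined for RNF and TRIM genes only, so its part in this value was not tested. The median of the E1 and E2 list was above those of both ligase families, 2.31 and 1.58, without a test of the difference. Both the list and the families were chosen with earlier results of these data known, but only the families were taken by a symbol rule. The sets are thus not chosen alike, and this may bear on the difference.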

How the data were processed

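RNA-seq of 4 libraries of MDA-MB-231 Fluc cells, 2 with cordycepin and 2 with DMSO, was used through the 1 table the authors deposited. In the paper's methods, 75 bp paired-end reads were mapped to GRCh38.p13 and counted with rsubread, whereas the submitters' processing notes name hg38, TopHat, HTSeq, DESeq and Cufflinks. The authors' deposited table gives 1 log2 CPM per gene, and the tool, normalization and low-count filter behind it are not given in the sources used here. It was read as a mean over all libraries from the column header logCPM, as no column names a sample. Its CPM sum to 1005541, which a mean over any set of whole libraries would give. The table's further columns hold the authors' comparison (log2 fold change, F statistic, p-value and adjusted p-value) and were not used. There are 0 columns of values per library, so no test between cordycepin and DMSO, no SD and no depth could be computed.

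The level per kb is the mean log2 CPM less log2 of the table's gene length in kb (1000 bases). GENCODE release 44 (same build) matched all 103 gene IDs, 83 with the same start and end, and gave gene types, canonical transcripts and exon overlap. Named genes are the 5 highest and 5 lowest of each family, the members of 13 lists of roles, and the 3 highest E1 and E2 genes. UBE2V1, the neighbouring pairs, the overlap and motif genes and other genes were named after their values were seen. The members and lists were chosen with earlier results of these data known. Functions were tested on simulated data. Python 3.11.15 was used with matplotlib 3.10.9, scipy 1.17.1, pandas 2.3.3 and numpy 2.4.6. The gene left out by symbol is not reported here.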

Additional observations from a re-analysis of the deposited data

How the results depend on the processing

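RNF genes kept a higher median than TRIM genes under each of the 4 alternatives that could be run, but the distance of 0.73 on the log2 scale shrank in all of them. With the length of the canonical transcript the medians were 2.70 and 2.22 (difference 0.48), and with no scaling by length 4.45 and 4.22 (0.23). Without the 26 genes whose exons overlap another gene on the same strand, the TRIM median was 1.95 and the difference 0.36, while the RNF median was again 2.31. Among the 85 genes above the lowest 25% of mean log2 CPM the medians were 2.51 and 2.16 (0.36). The causes were not tested. Single members were not ranked again under these alternatives. Counting all annotated gene types gave 56.5% of TRIM genes with a row and 77.1% of RNF genes. The planned search for the RING spacing pattern, and the alternatives that rest on it, were not run, as no protein sequences were used here. No paired analysis was possible because the table has no columns per library, and for the same reason no library could be left out.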
